A study of Rattus norvegicus with 9 samples.

Results

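Axon guidance ligands and receptors were examined in primary cortical neurons under electrical stimulation, by the RNA level of 68 of the 32623 genes in the table. The members were taken by gene symbol: semaphorins of classes 3 to 7, plexins, neuropilins, ephrins, Eph receptors, Slits, Robos, netrins, netrin-Gs, Dcc and the Unc5 receptors, each with a mean estimated count of at least 10 over the 9 libraries. Of 71 rows with such a symbol, 3 were left out for a low count, namely Robo4 (mean count 0), Unc5cl (0.444) and Ntn5 (3.67), while Epha1 (10.2) and Robo3 (13.4) lay just above the minimum. All 68 members also passed the filter of the test. The ACS group (3 libraries) had received alternating current and the DCS group (3 libraries, DES in the labels) direct current, given in the labels as 3 μA and 20 Hz for 20 min over 7 days, whereas the study's text gives the frequency for ACS. The control group (3 libraries) received no current. All 9 libraries are from wild-type cortical neurons, which the protocol takes from Wistar rat embryos of embryonic day 16 to 18. The labels give day 7 in vitro, and the protocol for growing the cells goes on to day 14. Whether the 3 libraries of a group are separate cultures is not stated, and the p-values therefore cover only the spread among these libraries, which may be technical.

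Guidance cues are secreted or membrane-bound proteins that attract or repel growing axons and dendrites. Semaphorins act through plexins, with neuropilins as co-receptors for most class 3 members. Ephrins act on Eph receptors of neighbouring cells and can also signal back into the cell that carries them. Slits repel axons through Robo receptors, and netrin attracts through Dcc and repels through Unc5 receptors. In the cortex these systems guide axons, place migrating neurons and shape dendrites and synapses.

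Estimated counts summed to 49039412 to 52938628 per ACS library, 52370330 to 68133858 per DCS library and 53910745 to 68690760 per control library. Values within a gene are given as CPM (counts divided by library size, which was scaled by TMM, times 1000000), and levels between genes as FPKM, which also divides by exon length. Tubb3, a neuronal tubulin, had a mean of 1123 FPKM, but Gfap of astrocytes (55.5 FPKM), Olig1 of the oligodendrocyte lineage (83.4 FPKM) and Csf1r of microglia (18.7 FPKM) were present too. The 4 endothelial markers in the table summed to 1.54 to 2.60 CPM in ACS, 0.441 to 2.44 CPM in DCS and 1.33 to 2.38 CPM in control libraries. Those of meningeal fibroblasts (4 in the table) summed to 8.72 to 9.58 CPM under ACS, 6.35 to 12.1 CPM under DCS and 7.29 to 9.87 CPM in the control group. The 7 markers of progenitors and dividing cells summed to 817 to 896 CPM under ACS and 903 to 945 CPM under DCS, against 941 to 995 CPM in the control group, and 3 of them (Hes5, Vim and Mki67) were lower under ACS than in the control group at an adjusted p under 0.05. Rbfox3, 1 of 8 neuronal markers, and Gfap, 1 of 5 astrocyte markers, were higher. The neuronal markers summed to 3733 to 3944 CPM under ACS and 3639 to 4105 CPM in the control group. Astrocyte markers summed to 659 to 985 CPM under ACS and 838 to 898 CPM in the control group, so the groups overlapped in both sums. The part of these shifts and of the smaller ACS libraries in the results was not tested. In such bulk samples fewer cells of a type and less RNA per cell cannot be told apart.

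Under alternating current 5 guidance genes rose, of which 3 encode proteins of semaphorin signaling and the other two proteins of the ephrin system. They are Plxna3 and Plxnb1, both plexin receptors, Sema6c, a transmembrane semaphorin, Efnb3, a transmembrane ephrin, and Ephb6, an Eph receptor whose kinase domain is inactive. Their gains against the control group ran from 0.20 to 0.50 on the log2 scale. No member fell. The 5 of 68 are 7.35%. Among all 16284 genes tested 4.16% passed at an adjusted p under 0.05 from edgeR, 2.83% higher and 1.33% lower under ACS, and such a share of all genes tested is called the background from here on. In a fit limited to genes with a mean FPKM of at least 1, 6.19% of 13366 genes passed, with the same 5 members. That fit leaves out the 10 members with a mean FPKM under 1, so the 7.35% of all 68 is not its member share.

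Plxna3, a receptor for class 3 semaphorins together with neuropilins, had 307, 304 and 312 CPM in the ACS libraries and 270.0, 244 and 209.5 CPM in the DCS libraries, against 218, 207 and 229 CPM in the control libraries. The ACS libraries lay close together above all others, and the DCS libraries were spread over a wide range that reached into the control group. Its mean was 308 ± 4.15 CPM under ACS, 241 ± 30.4 CPM under DCS and 218 ± 10.7 CPM in the control group (SD, n = 3 each). Between ACS and control this was a difference of 0.50 on the log2 scale (standard error 0.08, edgeR adjusted p = 0.0109). Against DCS the log2 fold change was 0.35 (adjusted p = 0.0825).

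Plxnb1, the receptor of Sema4d, had 85.9, 88.3 and 88.1 CPM in the ACS libraries and 76.8, 67.7 and 71.6 CPM in the DCS libraries, against 66.3, 65.3 and 75.9 CPM in the control libraries. All ACS values were above all DCS and control values, which overlapped each other. Between ACS and control it had a difference of 0.34 on the log2 scale (standard error 0.07, edgeR adjusted p = 0.0267), and between ACS and DCS a log2 fold change of 0.28 (edgeR adjusted p = 0.0999). Sema6c, a class 6 semaphorin, had 91.2, 106 and 95.1 CPM in the ACS libraries and 81.7, 83.4 and 72.8 CPM in the DCS libraries, against 67.7, 67.6 and 81 CPM in the control libraries. The ACS libraries were again highest, and the third control library was close to the DCS values. It gained 0.43 on the log2 scale (standard error 0.09, edgeR adjusted p = 0.0272) against the control group and had a log2 fold change of 0.30 (edgeR adjusted p = 0.165) against DCS.

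Efnb3, a ligand of Eph receptors at the midline of the nervous system and at synapses, had 152, 148 and 153 CPM in the ACS libraries and 142, 140.1 and 139 CPM in the DCS libraries, against 129.7, 134 and 131 CPM in the control libraries. The 3 groups did not overlap at all, with ACS above DCS and DCS above control. Efnb3 was the 1 member of 68 with this order, which 0.897% of all genes tested had. Its gain was the smallest of the 5, a difference of 0.20 on the log2 scale (standard error 0.04, edgeR adjusted p = 0.0184) between ACS and control, and DCS differed from control by 0.09 (adjusted p = 0.692). Between ACS and DCS the log2 fold change of Efnb3 was 0.109 (edgeR adjusted p = 0.2135), so neither step of the order passed by itself. Ephb6 had 96.5, 104 and 88.9 CPM in the ACS libraries and 90.1, 78.7 and 70 CPM in the DCS libraries, against 67.8, 69.2 and 77 CPM in the control libraries. The ACS and control values did not overlap, whereas the DCS values ran through both. Between ACS and control it had a difference of 0.44 on the log2 scale (standard error 0.10, edgeR adjusted p = 0.0362), and against DCS a log2 fold change of 0.28 (edgeR adjusted p = 0.224).

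**Figure D1:**
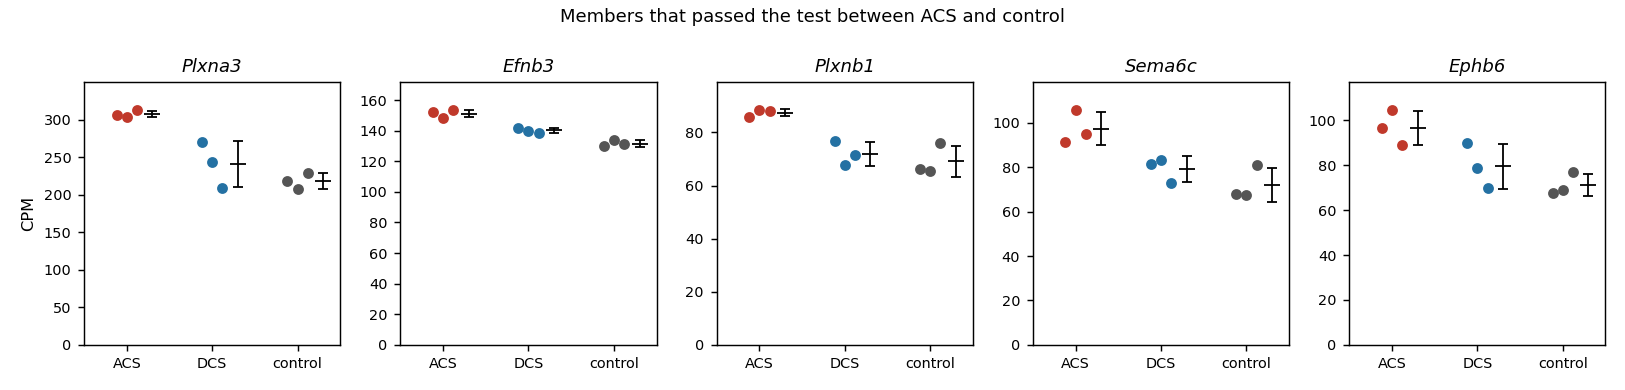
Level of the 5 guidance genes that passed the test between ACS and control, in CPM (y axis from 0) for each of the 3 libraries of the ACS, DCS and control groups (points in replicate order), with mean and SD (black). In each gene all 3 ACS libraries lie above all 3 control libraries, and Efnb3 is the one whose 3 groups are fully apart.

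These calls rest on few libraries. Without ACS library 1, 2 or 3, Plxna3 alone passed, without control library 1 or 2 no member did, and without control library 3 the count was 11 (10 higher, with Unc5c lower). The share of all genes called moved in the same fits, to between 1.06% and 1.83% without an ACS library, 0.982% and 0.831% without control library 1 or 2, and 8.64% without control library 3. Ephb6 also did not pass without DCS library 2. Over these fits the adjusted p reached 0.0619 for Plxna3, 0.0837 for Efnb3, 0.113 for Plxnb1, 0.116 for Sema6c and 0.136 for Ephb6, and all 5 log2 fold changes stayed above 0. DESeq2 called 12 members higher (background 6.79% of its genes) and Unc5c lower (background 5.21%). At the thresholds of the study (log2 fold change above 1 or below -1, unadjusted p under 0.05) only Epha10 passed, with a background of 1.47%.

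The 5 genes lie on different chromosomes. In the table, which names no build, Plxna3 is at chromosome X, 156363405 to 156379189, minus strand, ENSRNOG00000060464. Plxnb1 is at chromosome 8, 117836701 to 117856689, plus strand, ENSRNOG00000029510, and Sema6c at chromosome 2, 196334626 to 196343987, plus strand, ENSRNOG00000021101. Efnb3 is at chromosome 10, 56161432 to 56167426, minus strand, ENSRNOG00000010320, and Ephb6 at chromosome 4, 70903253 to 70918514, plus strand, ENSRNOG00000014367. No other entry of the table overlaps any of them. RefSeq promoters (250 bases before to 50 after the start, GRCr8) were matched by symbol for 52 of the 68 members. Of the genes that rose together, 3 are shown with their promoters, 5′ to 3′ on the gene's own strand and with CG dinucleotides in capitals. They span a middle, the highest and the lowest count of CG dinucleotides, in this order: Plxna3 (chrX:157266857-157267156, plus strand), Plxnb1 (chr8:118622911-118623210, plus strand) and Sema6c (chr2:185426236-185426535, plus strand). RefSeq and the table give Plxna3 opposite strands, each in its own build.
Plxna3: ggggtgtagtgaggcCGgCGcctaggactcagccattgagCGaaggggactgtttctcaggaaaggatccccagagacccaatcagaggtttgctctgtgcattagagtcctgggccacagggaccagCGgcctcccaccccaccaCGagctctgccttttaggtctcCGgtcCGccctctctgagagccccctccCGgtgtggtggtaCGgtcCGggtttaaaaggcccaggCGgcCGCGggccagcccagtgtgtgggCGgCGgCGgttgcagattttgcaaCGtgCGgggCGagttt
Plxnb1: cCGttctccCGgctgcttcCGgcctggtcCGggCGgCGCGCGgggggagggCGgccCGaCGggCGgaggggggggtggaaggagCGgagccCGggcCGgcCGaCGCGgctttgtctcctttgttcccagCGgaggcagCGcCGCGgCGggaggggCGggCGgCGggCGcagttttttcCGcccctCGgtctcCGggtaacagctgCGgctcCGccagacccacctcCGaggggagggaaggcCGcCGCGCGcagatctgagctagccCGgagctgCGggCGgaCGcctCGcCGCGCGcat
Sema6c: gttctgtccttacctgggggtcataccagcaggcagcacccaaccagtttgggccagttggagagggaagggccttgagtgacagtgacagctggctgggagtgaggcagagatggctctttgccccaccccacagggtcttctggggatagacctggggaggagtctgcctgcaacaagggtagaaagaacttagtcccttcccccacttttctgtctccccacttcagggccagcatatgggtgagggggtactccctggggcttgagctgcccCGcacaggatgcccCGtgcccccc
Plxnb1 holds 45 CG dinucleotides and 77.3% G and C, Plxna3 19 and 64.0%, and Sema6c 2 and 61.0%, whereas the Ephb6 promoter holds 20 and 59.7%. The median is 63.8% G and C over the 52 members and 51.7% over all 33469 promoters. Motifs of factors that neurons switch on with activity were searched on both strands. The AP-1 motif TGANTCA is in 7.33% of all promoters and in 1 of 52 members (Epha10). The cyclic AMP response element TGACGTCA is in 1.83% of all promoters and in 1 member (Epha2), and the Egr motif GCGNGGGCG in 4.98% and in 8 members. Efnb3 was without a matched promoter, and none of the 3 motifs is in the promoters of the other 4 genes that rose. With only 4 promoters and motifs this rare among all promoters, that absence carries no information. The 8 members with an Egr motif had log2 fold changes of -0.07 to 0.57 between ACS and control, with no call. A match is a description of letters and not of binding.

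With the 5 called genes included, 21 of the 68 members had an unadjusted p under 0.05 between ACS and control (30.9%, background 20.8%), 18 of them with the higher mean under ACS and 3 with the lower. The ACS and control libraries did not overlap in 23 members (33.8%, background 27.1%), 19 with ACS above and 4 with ACS below. These backgrounds cover either direction and give no share beside which to read the splits. At an edgeR adjusted p under 0.05, all genes leaned upward as well (2.83% higher, 1.33% lower). The log2 fold change was above 0 in 45 of 68 (66.2%, background 49.5%). The median log2 fold change of the members was 0.08, against -0.0029 over all genes. By family, 11 of 13 semaphorins of classes 4 to 7 and 6 of 8 ephrins were above 0, as were 2 of 5 of the Dcc and Unc5 receptors and 0 of 2 neuropilins. The other families had 3 of 7 (class 3 semaphorins), 8 of 13 (Eph receptors) and 6 of 9 (plexins) above 0. Robos had 3 of 3, Slits 2 of 3, and netrins and netrin-Gs 4 of 5. Since the members were chosen with results known, these counts are descriptions.

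**Figure D2:**
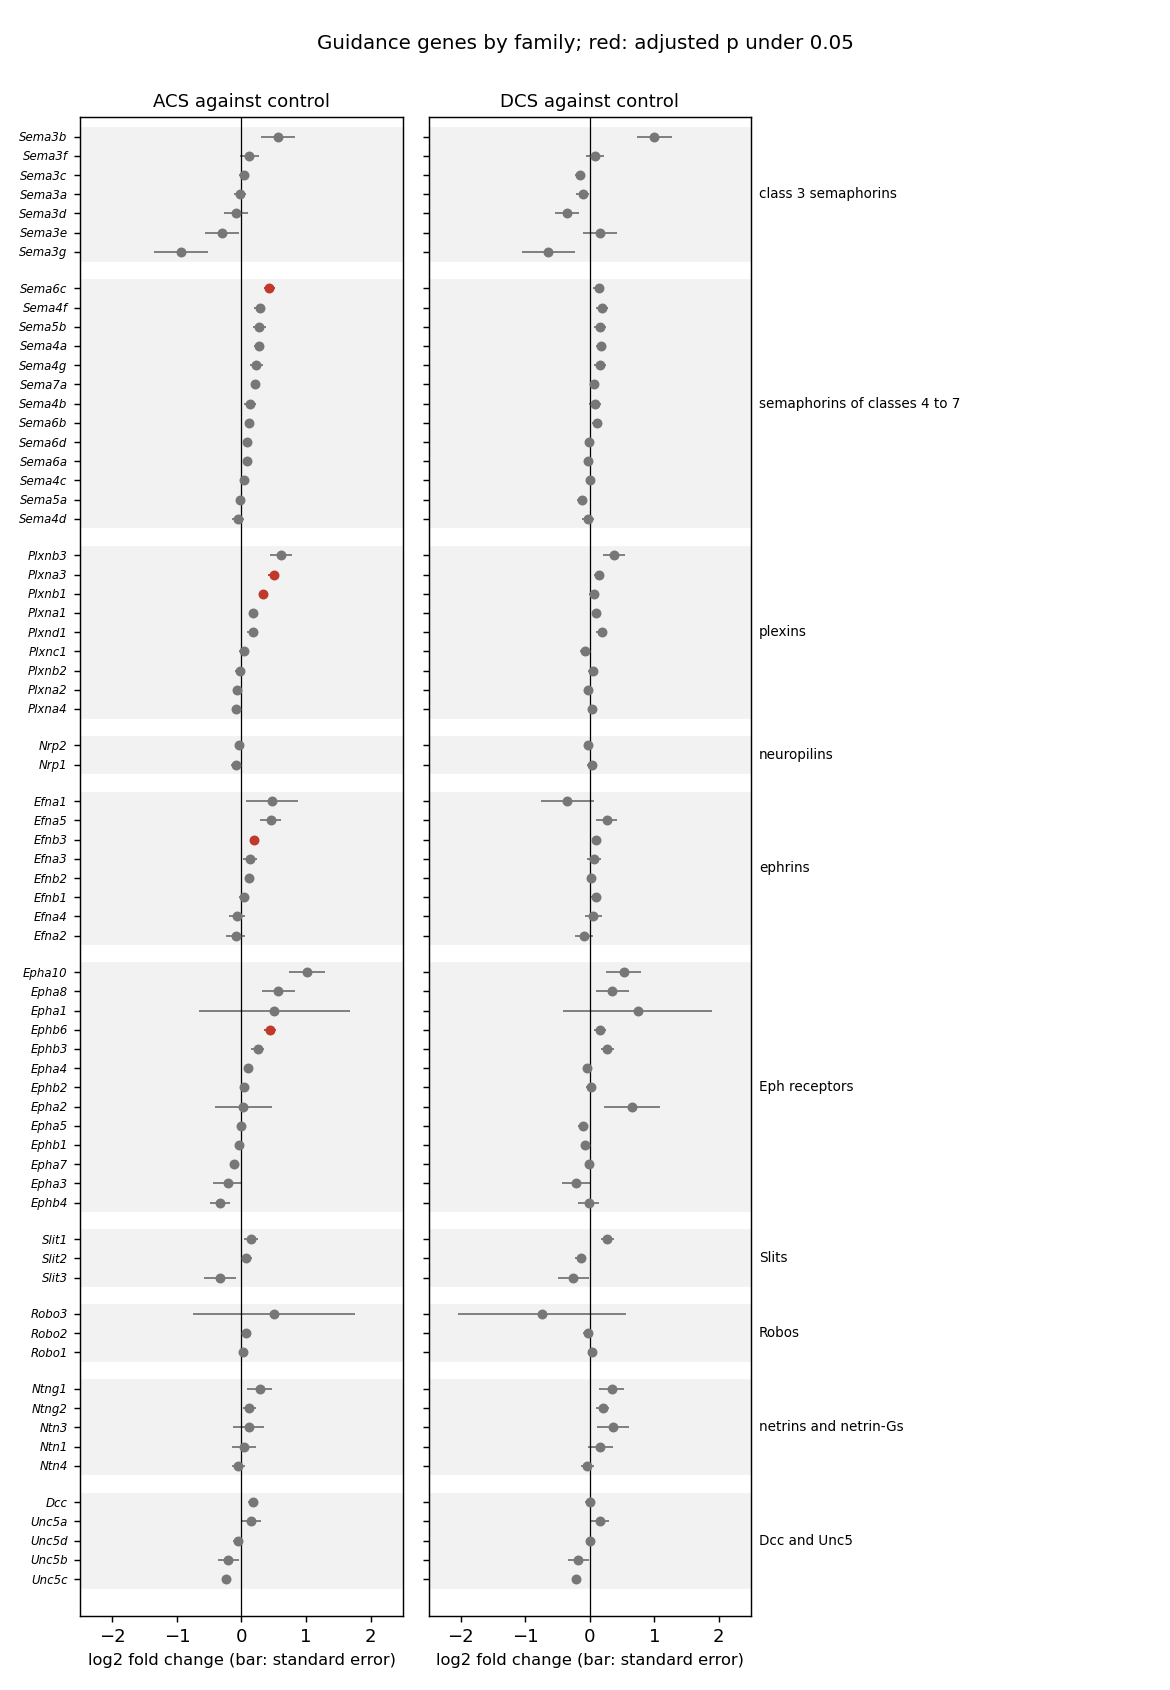
Log2 fold change of each of the 68 members with its standard error (bars), ACS against control at the left and DCS against control at the right, by family (grey bands) and ordered by the ACS value. The 5 red points are the calls at an adjusted p under 0.05, all between ACS and control and all above 0, and the widest bars belong to Robo3 and Epha1, which had a count of 0 in some libraries.

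The ranking of guidance genes by level put Epha4 (79.2 FPKM), Sema7a (77.7 FPKM), Sema3c (60.4 FPKM), Plxna2 (58.7 FPKM) and Efnb2 (54.7 FPKM) first. Of the 68, 32 had a mean of at least 10 FPKM, 26 of 1 to under 10 FPKM and 10 under 1 FPKM. By median, the receptors of each system stood above its ligands, as with plexins (median of 33.4 FPKM over 9 genes) for the semaphorins of classes 4 to 7 (14.8 FPKM over 13) and of class 3 (1.09 FPKM over 7). Family sums did not all have this order. Netrins and netrin-Gs summed to 50.9 to 69.4 FPKM per library, above Dcc and the Unc5 receptors (34.2 to 38.9 FPKM). Summed over all members, the level was 1246, 1278 and 1263 FPKM in ACS libraries and 1247, 1239 and 1192 FPKM in DCS libraries, against 1171, 1183 and 1235 FPKM in control libraries.

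**Figure D3:**
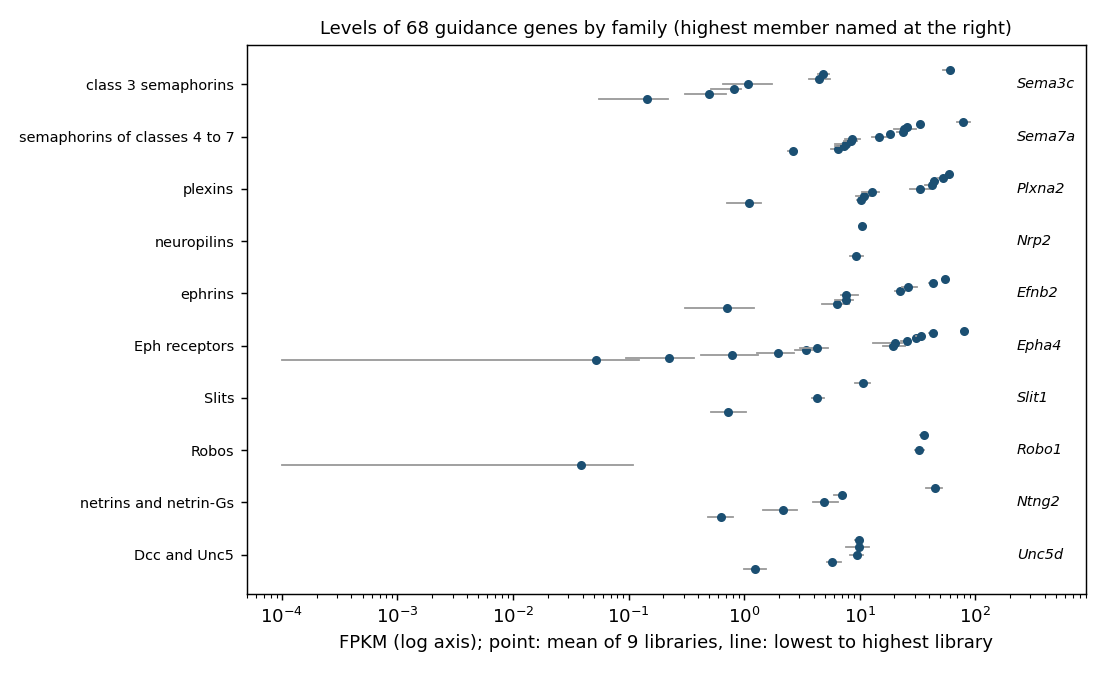
Level of the 68 members by family in FPKM on a log axis, with the mean of the 9 libraries (points) and the lowest and highest library (lines), 0 being listed as 0.0001 in the table. Epha4 and Sema7a are highest, at 79.2 and 77.7 FPKM, and the lines of Epha1 and Robo3 reach the listed 0.

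Among the secreted class 3 semaphorins, which mostly repel axons, none passed the test. Sema3c, which attracts some cortical axons and was far above its relatives, had 332, 339.5 and 332 CPM in the ACS libraries and 307, 300.1 and 274 CPM in the DCS libraries, against 348, 348 and 280.4 CPM in the control libraries. The ACS libraries lay above the DCS libraries (0.19 on the log2 scale, adjusted p = 0.329), whereas the control libraries were split, 2 above all ACS and DCS values and 1 among the DCS values. Sema3b, a secreted semaphorin at a low level, had 2.2, 4.07 and 2.16 CPM under ACS and 3.68, 4.51 and 3.23 CPM under DCS, against 1.89, 2.11 and 1.71 CPM in the control group. All DCS libraries were above all control libraries, a log2 fold change of 1.00 (edgeR adjusted p = 0.692), the largest change under DCS among the members with an unadjusted p under 0.05. Sema3g, a ligand of neuropilin 2 with a mean count of 34, had 0.238, 0.512 and 0.512 CPM under ACS and 0.441, 0.692 and 0.417 CPM under DCS, against 0.841, 0.878 and 0.698 CPM in the control group. Both stimulated groups were below the control group without overlap, with log2 fold changes of -0.93 (adjusted p = 0.238) for ACS and -0.64 (adjusted p = 0.733) for DCS. Sema3a, the repellent that collapses growth cones, was at 4.78 FPKM with a log2 fold change of -0.02 between ACS and control. Sema3f (4.4 FPKM), Sema3d (0.821 FPKM) and Sema3e (0.495 FPKM) had adjusted p of at least 0.559 in that comparison. Sema3f shares 343 bases with Gnat1 on the same strand in the table, so counts of these 2 genes may not be fully apart.

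Semaphorins of classes 4 to 7, which are mostly anchored in the membrane, had 6 of 13 members with ACS libraries above all control libraries and none with them below, while 27.1% of all genes tested did not overlap in either direction. One of them, Sema6c, passed. Sema7a, which promotes axon growth through integrins, had 222, 219 and 249 CPM under ACS and 212, 202 and 203 CPM under DCS, against 193, 190.0 and 210.0 CPM in the control group. The ACS values were above all others, a log2 fold change of 0.22 (edgeR adjusted p = 0.0685) against control and 0.16 (adjusted p = 0.263) against DCS. Sema4a had 31.9, 35.3 and 30.8 CPM under ACS and 30.3, 32.5 and 29.1 CPM under DCS, against 26.6, 28.6 and 26 CPM in the control group. Here both stimulated groups lay above the control group, by 0.27 (adjusted p = 0.0753) for ACS and 0.18 (adjusted p = 0.692) for DCS. Sema4f had 42, 35.6 and 38.5 CPM under ACS and 38.2, 38.5 and 31.8 CPM under DCS, against 31.1, 33.1 and 31.1 CPM in the control group. Its ACS and control libraries did not overlap, a log2 fold change of 0.28 (edgeR adjusted p = 0.103). Sema4g had 72, 70.7 and 70 CPM under ACS and 76, 70.4 and 56.1 CPM under DCS, against 57.3, 59.6 and 64.7 CPM in the control group. The DCS values spread from below the control group to above the ACS group, and ACS against control gave a log2 fold change of 0.23 (edgeR adjusted p = 0.22). Sema5b, a class 5 semaphorin with thrombospondin repeats, had 30.5, 27.1 and 27.6 CPM under ACS and 25.5, 28.3 and 24.6 CPM under DCS, against 20.7, 23.1 and 26.4 CPM in the control group. ACS was above control in every library pair, a log2 fold change of 0.28 (edgeR adjusted p = 0.146). The other 7 of this group (Sema6a, Sema6d, Sema6b, Sema4c, Sema4d, Sema4b and Sema5a, from 33.2 down to 2.67 FPKM) had log2 fold changes of -0.05 to 0.13 between ACS and control.

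Beside the 2 plexins that rose, the other semaphorin receptors did not pass the test. Plxna2, a receptor for Sema6a and class 3 semaphorins and the highest plexin, had 659.8, 641 and 663 CPM under ACS and 700.5, 665 and 661 CPM under DCS, against 697, 686 and 684 CPM in the control group. All 3 ACS values were below all 3 control values, with a log2 fold change of -0.07 (adjusted p = 0.27). Plxna1 had 400.5, 426 and 411 CPM under ACS and 412, 390.3 and 369 CPM under DCS, against 342, 352 and 399.5 CPM in the control group. The lowest ACS library was just above the third control library, and the change was 0.18 (adjusted p = 0.143). Plxnb3, the receptor of Sema5a and the lowest plexin at 1.11 FPKM, had 7.43, 8.52 and 8.67 CPM under ACS and 8.22, 6.38 and 6.29 CPM under DCS, against 4.43, 5.31 and 6.33 CPM in the control group. Its log2 fold change was the largest among the plexins, a log2 fold change of 0.61 (edgeR adjusted p = 0.0729) between ACS and control and 0.38 (adjusted p = 0.695) between DCS and control. Plxnb2 (52.4 FPKM), Plxna4 (43.6 FPKM), Plxnd1 (12.8 FPKM) and Plxnc1 (10.2 FPKM) had log2 fold changes of -0.08 to 0.17 between ACS and control. The neuropilins bind class 3 semaphorins outside the cell and lack a signaling domain of their own. Nrp1 had 53, 52.6 and 48.4 CPM under ACS and 56.9, 54.1 and 56.3 CPM under DCS, against 52.2, 62 and 49.5 CPM in the control group, a log2 fold change of -0.09 (edgeR adjusted p = 0.574) between ACS and control. Its ACS libraries lay below all DCS libraries, with the control libraries spread over both. Nrp2 had 71.2, 65.4 and 69.5 CPM under ACS and 70.6, 64.7 and 72.4 CPM under DCS, against 66.8, 70.1 and 74.5 CPM in the control group. Its groups overlapped in each comparison, and the log2 fold change between ACS and control was -0.04 (adjusted p = 0.782).

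Of the ephrins, Efnb3 passed and the others did not. Efnb2, the most abundant ephrin and a ligand of several EphB receptors and Epha4, had 248, 256 and 255 CPM under ACS and 234, 239 and 233 CPM under DCS, against 236, 237 and 226 CPM in the control group. The ACS libraries were above all DCS and control libraries by a small step, 0.12 (adjusted p = 0.103) against control and 0.10 (adjusted p = 0.243) against DCS. Efna5, a lipid-anchored ephrin that sets topographic maps, had 5.09, 5.59 and 4.52 CPM under ACS and 4.52, 4.67 and 4.12 CPM under DCS, against 3.53, 4.38 and 3.21 CPM in the control group. ACS and control did not overlap, a log2 fold change of 0.45 (edgeR adjusted p = 0.157). Efna1, at 0.706 FPKM, had 1.25, 1.27 and 1.95 CPM under ACS and 0.824, 1.21 and 0.489 CPM under DCS, against 0.916, 0.717 and 1.58 CPM in the control group. Its ACS and control values overlapped, a log2 fold change of 0.47 (edgeR adjusted p = 0.548). Efna3, Efnb1, Efna2 and Efna4 (26.4 to 7.62 FPKM) had log2 fold changes of -0.09 to 0.13.

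Eph receptors are the largest family of receptor tyrosine kinases. Epha4, which binds ephrins of both classes and was the most abundant member, had 542, 535 and 569 CPM under ACS and 499, 493 and 504 CPM under DCS, against 529.8, 508 and 504 CPM in the control group. The ACS libraries were above all DCS libraries, a log2 fold change of 0.14 (edgeR adjusted p = 0.138) between ACS and DCS, and lay just above the control libraries, at 0.09 (adjusted p = 0.19). Epha7 had 76.1, 71.8 and 78.8 CPM under ACS and 82.6, 82.6 and 78 CPM under DCS, against 83.7, 84.7 and 78 CPM in the control group. The groups overlapped, and ACS against control gave a log2 fold change of -0.12 (edgeR adjusted p = 0.233). Ephb3 had 15.5, 14.3 and 15.1 CPM under ACS and 16.4, 14.4 and 14.9 CPM under DCS, against 11.6, 12.2 and 13.9 CPM in the control group. Both stimulated groups were above the control group, by 0.25 (adjusted p = 0.177) for ACS and 0.27 (adjusted p = 0.692) for DCS. Epha10, an Eph receptor without kinase activity like Ephb6, had 4.24, 3.15 and 2.77 CPM under ACS and 2.53, 3.06 and 1.65 CPM under DCS, against 1.35, 1.62 and 2.06 CPM in the control group. Its ACS values were all above the control values, with the largest log2 fold change of any member, 1.01 (standard error 0.28, adjusted p = 0.0728), at 0.782 FPKM. It passed without DCS library 3. The 8 others ran from Epha5 (43.1 FPKM) and Ephb2 (33.6 FPKM) down to Epha2 (0.223 FPKM) and Epha1 (0.052 FPKM), with log2 fold changes of -0.33 to 0.57 between ACS and control.

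**Figure D4:**
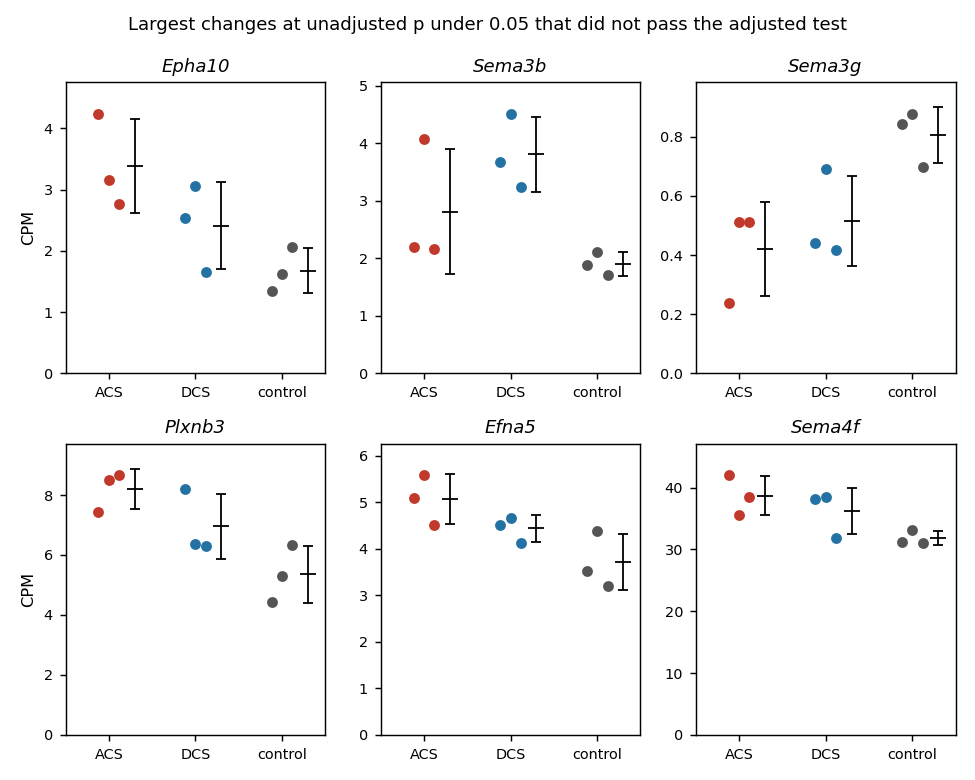
Level in CPM (y axes from 0) of the 6 members with the largest change against the control group among those with an unadjusted p under 0.05 that did not pass the adjusted test, for each library of the ACS, DCS and control groups, with mean and SD (black). Sema3g lies lower and Sema3b higher in both stimulated groups than in the control group, and all 6 were at under 10 FPKM.

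No Slit or Robo passed the test. Slit1, a repellent found mainly in the nervous system, had 57, 60.2 and 46.7 CPM under ACS and 63.6, 63 and 51.8 CPM under DCS, against 46.9, 51.1 and 49.6 CPM in the control group. The DCS libraries were above the control libraries, a log2 fold change of 0.27 (edgeR adjusted p = 0.692), and the ACS values were spread from the lowest of all to above the control group. Slit2 had 32.8, 39 and 37.8 CPM under ACS and 32.9, 30.3 and 31 CPM under DCS, against 36.6, 31.6 and 35.7 CPM in the control group. The groups overlapped, with a log2 fold change of 0.22 (edgeR adjusted p = 0.282) between ACS and DCS. Slit3 had 3.13, 4.13 and 4.5 CPM under ACS and 3.56, 3.41 and 5.42 CPM under DCS, against 4.69, 3.97 and 6.14 CPM in the control group, and a log2 fold change of -0.33 (edgeR adjusted p = 0.477) between ACS and control. Robo1 had 192, 190.1 and 171 CPM under ACS and 187, 187 and 182 CPM under DCS, against 183, 184 and 175 CPM in the control group. The groups overlapped in each comparison, and the log2 fold change was 0.03 (standard error 0.05) for ACS and 0.04 (standard error 0.05) for DCS. Robo2, at 32.6 FPKM, had one of 0.07 under ACS. Robo3, which steers commissural axons in the hindbrain and spinal cord, had 0.337, 0 and 0.645 CPM under ACS and 0.211, 0 and 0.201 CPM under DCS, against 0.0748, 0.366 and 0.248 CPM in the control group. It was at 0 in a library of each stimulated group, and no difference was detectable at this depth.

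Netrins, their relatives and their receptors had no call either. Ntng2, a lipid-anchored netrin-G that marks synaptic input layers, had 123, 123 and 116 CPM under ACS and 131, 136 and 113 CPM under DCS, against 98.5, 105 and 128 CPM in the control group. The third control library was above all ACS libraries and the other two were below them, so the groups overlapped, with a log2 fold change of 0.12 (edgeR adjusted p = 0.518). Ntng1 had 2.4, 3.4 and 2.47 CPM under ACS and 3.08, 2.7 and 2.82 CPM under DCS, against 2.5, 2.05 and 2.25 CPM in the control group, with DCS above control in all libraries and a log2 fold change of 0.34 (edgeR adjusted p = 0.706). Ntn1, the classical attractant, was at 4.95 FPKM with a log2 fold change of 0.04 between ACS and control, Ntn4 at 7.01 FPKM with -0.05 and Ntn3 at 2.17 FPKM with 0.11. Dcc, the receptor for attraction, had 51.3, 48.1 and 46 CPM under ACS and 45, 45 and 38.1 CPM under DCS, against 44.6, 41.6 and 42.1 CPM in the control group. The ACS libraries were above all DCS and control libraries, a log2 fold change of 0.18 (edgeR adjusted p = 0.205) against control and a log2 fold change of 0.18 (edgeR adjusted p = 0.319) against DCS. Unc5c, a receptor for repulsion, had 54.6, 50.8 and 52.8 CPM under ACS and 53.5, 54 and 52.7 CPM under DCS, against 63.9, 66.4 and 56.3 CPM in the control group. Both stimulated groups were below the control group without overlap, with log2 fold changes of -0.24 (adjusted p = 0.0685) for ACS and -0.22 (adjusted p = 0.692) for DCS. Unc5d had 29, 30.8 and 30.6 CPM under ACS and 31.8, 32.7 and 30.1 CPM under DCS, against 29.7, 32.2 and 32.3 CPM in the control group. Its groups overlapped, a log2 fold change of -0.06 (edgeR adjusted p = 0.628). Unc5a (9.78 FPKM) and Unc5b (1.25 FPKM) had 0.14 and -0.20 on the log2 scale.

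Under direct current none of the 68 members passed edgeR's test against the control group, where 0.0123% of all genes did, and none passed with limma or with DESeq2 (background 0.212%). At an unadjusted p under 0.05 there were 7 members (10.3%, background 7.09% in either direction), Ephb3, Efnb3, Plxnb3, Sema3b, Sema4a and Slit1 above and Unc5c below the control group. The DCS and control libraries did not overlap in 9 members (13.2%, background 11.1%), and at the thresholds of the study Sema3b alone passed (background 0.571%). Compared directly, no member passed between ACS and DCS, where 0.633% of all genes did. At an unadjusted p under 0.05 there were 11 (16.2%, background 13.9% in either direction), all with the higher mean under ACS. In 12 members the ACS and DCS libraries did not overlap (17.6%, background 21.4%). DESeq2 called 4 (Epha4, Plxna3, Plxnb1 and Sema6c), with a background of 4.43%, and limma called none. The calls between ACS and control are therefore not shown to be particular to alternating current. The 3 comparisons share libraries and are not independent of each other.

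In a list of other guidance genes (effectors, co-receptors and some further ligands and receptors), 6 of 66 tested genes rose under ACS against control (9.09%, with the same background of 4.16%). None fell. The list overlaps one of an earlier analysis of these libraries and is no independent evidence. The median log2 fold change of the list was 0.03. Dpysl5, a collapsin response mediator protein of growth cones, had 798, 839 and 768 CPM under ACS and 765, 794 and 805 CPM under DCS, against 601, 678 and 640.4 CPM in the control group. Both stimulated groups were above the control group, with a log2 fold change of 0.33 (edgeR adjusted p = 0.0104) for ACS and a log2 fold change of 0.30 (edgeR adjusted p = 0.51) for DCS. Farp1, which acts in the growth of dendrites and synapses, had 259, 252 and 231 CPM under ACS and 218, 214 and 187 CPM under DCS, against 199.6, 204 and 201 CPM in the control group. Against control it rose under ACS, a log2 fold change of 0.30 (edgeR adjusted p = 0.0334), and between ACS and DCS it had a log2 fold change of 0.26 (edgeR adjusted p = 0.101). The other 4 were Vav2, an exchange factor that acts in ephrin signaling (0.23, adjusted p = 0.0182), Arhgef11, which binds plexin B receptors (0.29, adjusted p = 0.0269), Mical2, an enzyme that oxidizes actin (0.44, adjusted p = 0.0294), and L1cam, an adhesion molecule of axons that pairs with Nrp1 (0.17, adjusted p = 0.0355). The count was 1, 0 or 3 without ACS library 1, 2 or 3, and 1, 2 or 10 without control library 1, 2 or 3. Of all genes, 1.15%, 1.06% or 1.83% were called without those ACS libraries, and 0.982%, 0.831% or 8.64% without those control libraries.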

How the data were processed

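RNA was measured in 9 libraries, 3 each of the ACS, DCS and control groups, grouped by their titles. The authors trimmed the reads (fastp in the methods, cutadapt 1.9 in the labels), aligned them with HISAT2 2.0.4 and quantified each library with StringTie 1.3.4d. The labels also name UMI-tools, DESeq2 and edgeR without their role. The deposited FPKM values are scaled by the authors to exon length and library size, with 0 written as 0.0001. The deposited estimated counts are whole numbers, and 34.1% of those from 1 to 15 are divisible by 4 (20% if even), the reason for an alternative on counts divided by 4.

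Counts were scaled by TMM and filtered by filterByExpr (minimum count 10, minimum total 15), which kept 16284 genes, and tested over all 9 libraries with the quasi-likelihood F test of edgeR 4.0.16 in R 4.3.3. The Benjamini-Hochberg adjustment ran over all genes tested, with calls at an adjusted p under 0.05. The standard error is the log2 fold change divided by the root of F. Alternatives were no filter, a mean FPKM of at least 1, median-of-ratios scaling, counts divided by 4, the 6 libraries of a comparison, the replicate block, DESeq2 1.42.0, limma 3.58.1 on log2(FPKM + 1) or log2(FPKM + 0.1), each library left out, and the thresholds of the study.

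Values by library are given for members with an unadjusted p under 0.05 in any comparison, the most abundant of each family and the one with the largest change between ACS and control (35 members). The members and lists were chosen with earlier results of these data known.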

Additional observations from a re-analysis of the deposited data

How the results depend on the processing

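The count of 5 guidance genes between ACS and control was 4 with the replicate block (Efnb3, Plxna3, Plxnb1 and Sema4a), but libraries with the same number did not deviate together (correlations of -0.053 to 0.063), so the numbers were not read as pairs. It was 13 with DESeq2 (12 higher), 3 with limma at either pseudocount (Efnb3, Plxna3 and Sema6c) and 1 at the thresholds of the study (Epha10). Leaving out 1 library gave 0 to 11. Of all genes, 678 passed in the reported test, 475 with the block, 1640 with DESeq2, 546 or 554 with limma, 239 at the thresholds of the study and 138 to 1431 without 1 library. Between DCS and control the count of 0 became 1 at the thresholds of the study (Sema3b) and stayed 0 in the fits without 1 library. Between ACS and DCS it became 4 with DESeq2 and 0 to 1 without 1 library (Plxna3 without DCS library 1, Plxnb1 without control library 3), where 103 of all genes passed in the reported test, 624 with DESeq2 and 27 to 184 without 1 library. The 6 called genes of the list of effectors and other guidance genes became 13 with DESeq2 (10 higher) and 3 with limma at either pseudocount. They became 0 to 10 without 1 library, and the settings for this list were chosen after seeing the data. The cause of these differences was not tested. No log2 fold change of a named member with an unadjusted p under 0.05 turned its direction under any of these settings. Members at a mean count under 50 (3 of 68) are limited by depth.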

Other observations

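Some members are neighbours on the genome (positions as in the table, less than 1000000 bases apart). Efna1, Efna3 and Efna4 follow each other on chromosome 2, with 41630 and 10716 bases between them, all on the minus strand. Their levels were 0.706, 26.4 and 7.62 FPKM, and their log2 fold changes between ACS and control 0.47, 0.13 and -0.07 (adjusted p of 0.548, 0.527 and 0.793 from edgeR). Plxna3 and Plxnb3 lie 636116 bases apart on chromosome X. Plxna3 rose by 0.50 and Plxnb3 had 0.61 (adjusted p = 0.0729), at 33.4 and 1.11 FPKM. Sema3b and Sema3f, 76353 bases apart on chromosome 8, had 0.56 and 0.12 (adjusted p of 0.265 and 0.687). Whether neighbours moved more alike than other pairs was not tested.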
